A study of Mus musculus with 26 samples.

Results

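The interferon-gamma-induced immune GTPases described here are 9 genes of 2 families: the immunity-related GTPases Iigp1, Igtp, Irgm1 and Irgm2, and the guanylate-binding proteins Gbp2, Gbp3, Gbp4, Gbp5 and Gbp7. They were taken by name from a table of 47730 counted features, of which 16637 had enough counts to be tested, and all 9 members were among those tested. They were followed across 26 RNA sequencing libraries of E-A14, a mouse mammary tumour cell line that expresses Her2. The cells were implanted in the fourth mammary fat pad of FVB/N mice aged 6 to 8 weeks. The depleted mice received 100 µg each of anti-CD4 and anti-CD8a antibody 2 times per week from 2 weeks before implantation, and the control mice received the same amounts of rat IgG2a and IgG2b. Depleted tumours were taken on day 20 and control tumours on day 47, so that treatment and time cannot be told apart. The antibodies are aimed at CD4 and CD8 T cells, and other lymphocytes of the host, such as natural killer cells, are not their targets. From both kinds of tumour, cells with Her2 on their surface were collected in fractions with EpCAM (EpCAM-positive) and without it (EpCAM-negative), and the gates left out dead cells and those that carried CD90, CD105 or CD45. This gave 6 libraries in each of 4 tumour groups, and 2 libraries came from the line in culture.

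Immunity-related GTPases and guanylate-binding proteins are cytosolic defence proteins that mouse cells of many types make when interferon gamma reaches them. Interferon gamma binds its receptor (Ifngr1 and Ifngr2), whose kinases are Jak1 and Jak2, and many of the genes it induces carry a DNA element called GAS. Interferon regulatory factors such as Irf1 bind another element, the ISRE, which type I interferons also use. Effector proteins such as Irga6, the product of Iigp1, load onto the vacuoles of intracellular parasites and break them, the 3 IRGM proteins keep the effectors off the membranes of the cell itself, and the guanylate-binding proteins coat vacuoles and bacteria and help to start inflammasome signalling.

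The promoters are shown first because an ISRE can be read before the start of each of the 7 genes searched, and a GAS as well in 4 of them. Windows of 300 bases (250 before to 50 after an annotated start), from RefSeq on build GRCm38.p6, were searched for 7 of the 9 members. No window was found for Gbp4. Iigp1 was left out before the search, so its promoter was not examined. Both strands were searched for GAAANNGAAA (ISRE) and TTCNNNGAA (GAS), where N is any base. The 170 bases that end at the start site are printed 5′ to 3′ on the strand of the gene, with the matches in capitals. A run of capitals longer than 10 bases in Irgm1 and in Gbp3 holds 2 ISRE matches that overlap, and a run that begins with TTTC is an ISRE on the opposite strand.
Igtp (chr11:58199386-58199555, plus strand): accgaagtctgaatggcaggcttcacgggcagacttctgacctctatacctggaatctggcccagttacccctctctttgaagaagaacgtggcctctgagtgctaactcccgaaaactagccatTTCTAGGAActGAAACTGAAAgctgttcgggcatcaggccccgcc
Irgm2 (chr11:58214807-58214976, plus strand): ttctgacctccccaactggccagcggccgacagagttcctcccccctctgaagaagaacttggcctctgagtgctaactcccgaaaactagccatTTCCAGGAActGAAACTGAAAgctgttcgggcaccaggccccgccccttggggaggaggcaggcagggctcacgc
Irgm1 (chr11:48871421-48871590, minus strand): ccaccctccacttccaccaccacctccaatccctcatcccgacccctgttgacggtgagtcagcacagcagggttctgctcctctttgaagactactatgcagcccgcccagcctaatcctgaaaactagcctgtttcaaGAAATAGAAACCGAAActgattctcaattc
Gbp2 (chr3:142620493-142620662, plus strand): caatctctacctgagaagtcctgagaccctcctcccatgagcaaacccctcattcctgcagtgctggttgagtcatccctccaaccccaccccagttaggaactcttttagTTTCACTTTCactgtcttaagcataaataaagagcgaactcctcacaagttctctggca
Gbp3 (chr3:142559874-142560043, plus strand): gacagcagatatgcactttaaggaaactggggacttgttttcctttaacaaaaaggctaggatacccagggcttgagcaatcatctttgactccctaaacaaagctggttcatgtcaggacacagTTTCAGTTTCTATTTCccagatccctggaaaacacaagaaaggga
Gbp5 (chr3:142496764-142496933, plus strand): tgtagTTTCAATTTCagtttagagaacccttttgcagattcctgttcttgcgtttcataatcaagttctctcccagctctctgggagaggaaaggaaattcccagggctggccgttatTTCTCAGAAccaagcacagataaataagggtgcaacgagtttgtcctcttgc
Gbp7 (chr3:142530166-142530335, plus strand): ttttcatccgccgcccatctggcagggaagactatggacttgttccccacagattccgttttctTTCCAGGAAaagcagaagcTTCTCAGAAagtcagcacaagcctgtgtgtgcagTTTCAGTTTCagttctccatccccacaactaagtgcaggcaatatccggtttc
An ISRE lay in the window of 7 of the 7 genes, and 3.44% of all 32851 windows of this length held one. A GAS lay in 4 of the 7, namely Igtp, Irgm2, Gbp5 and Gbp7, against 8.3% of all windows, and the same 4 held both elements, against 0.454%. In Igtp and Irgm2 the 2 elements stood next to each other, a GAS that began 45 and 75 bases before the start and an ISRE that began 34 and 64 bases before it. The windows of these 2 genes were 72.8% identical when aligned, while the other pairs of windows were between 40.5% and 50.6% identical. Gbp5 and Gbp7 each had 2 GAS matches, of which one in Gbp5 began 245 bases before the start and is outside the stretch printed. Gbp3 has a further annotated start whose window held neither element. For Irgm2 and Gbp7 the bases just after the annotated start were not found in a GENCODE M21 transcript of the gene, so their distances rest on the RefSeq start alone. A match describes letters in a window and is not a measured binding site.

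**Figure D1:**
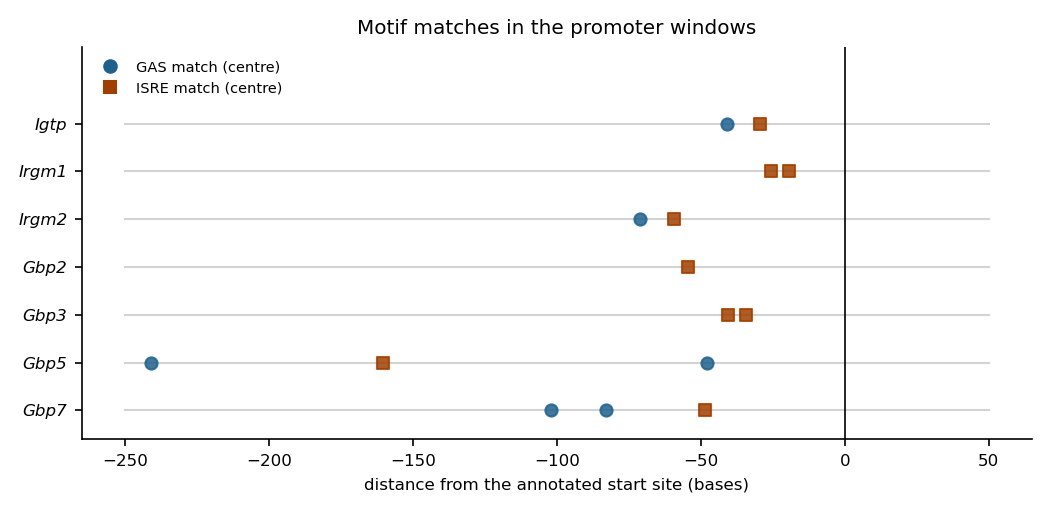
Positions of GAS (circles) and ISRE (squares) matches in the promoter windows of 7 members; the horizontal axis is the distance from the annotated start site in bases, and each grey line is a window from 250 before to 50 after the start. All 7 genes carry an ISRE before the start, and 4 also carry a GAS.

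Levels are given as CPM, the counts of a gene relative to the library size, scaled by the TMM library sizes of edgeR. Total counts ran from 17559520 to 25601999 per depleted library, from 26895429 to 38740143 per control library, and were 27253363 and 35059744 in the cultures, so that the depleted and control libraries did not overlap in depth. Epcam itself was between 815 and 2705 CPM in the EpCAM-positive libraries and between 1.06 and 284 CPM in the EpCAM-negative ones, and Erbb2, which encodes the mouse Her2 protein, was at 50.1 CPM or more in all of them. The labels number the libraries of a group but do not say that each number is a separate mouse or culture, so p-values measure the spread between these libraries. In bulk RNA, fewer cells that express a gene and less RNA per cell cannot be told apart. All adjusted p-values are from edgeR's quasi-likelihood test with Benjamini-Hochberg adjustment over the 16637 features, and errors of log2 fold changes are standard errors (SE).

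All 9 GTPase genes were higher in control (day 47) than in depleted (day 20) tumours, and this held for both EpCAM fractions. In EpCAM-positive cells 22.4% of the features tested were higher in control, and in EpCAM-negative cells 23.2% were. The median log2 fold change of the 9 genes was 2.24 in EpCAM-positive cells and 2.22 in EpCAM-negative ones, against 0.02 and -0.03 over all features. In 7 of the 9 genes in EpCAM-positive cells, and in 8 of the 9 in EpCAM-negative cells, every control library was above every depleted library, which was so for 12.5% and 14.5% of the features tested. The exceptions were Gbp4 and Gbp5 in EpCAM-positive cells and Gbp2 in EpCAM-negative cells.

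**Figure D2:**
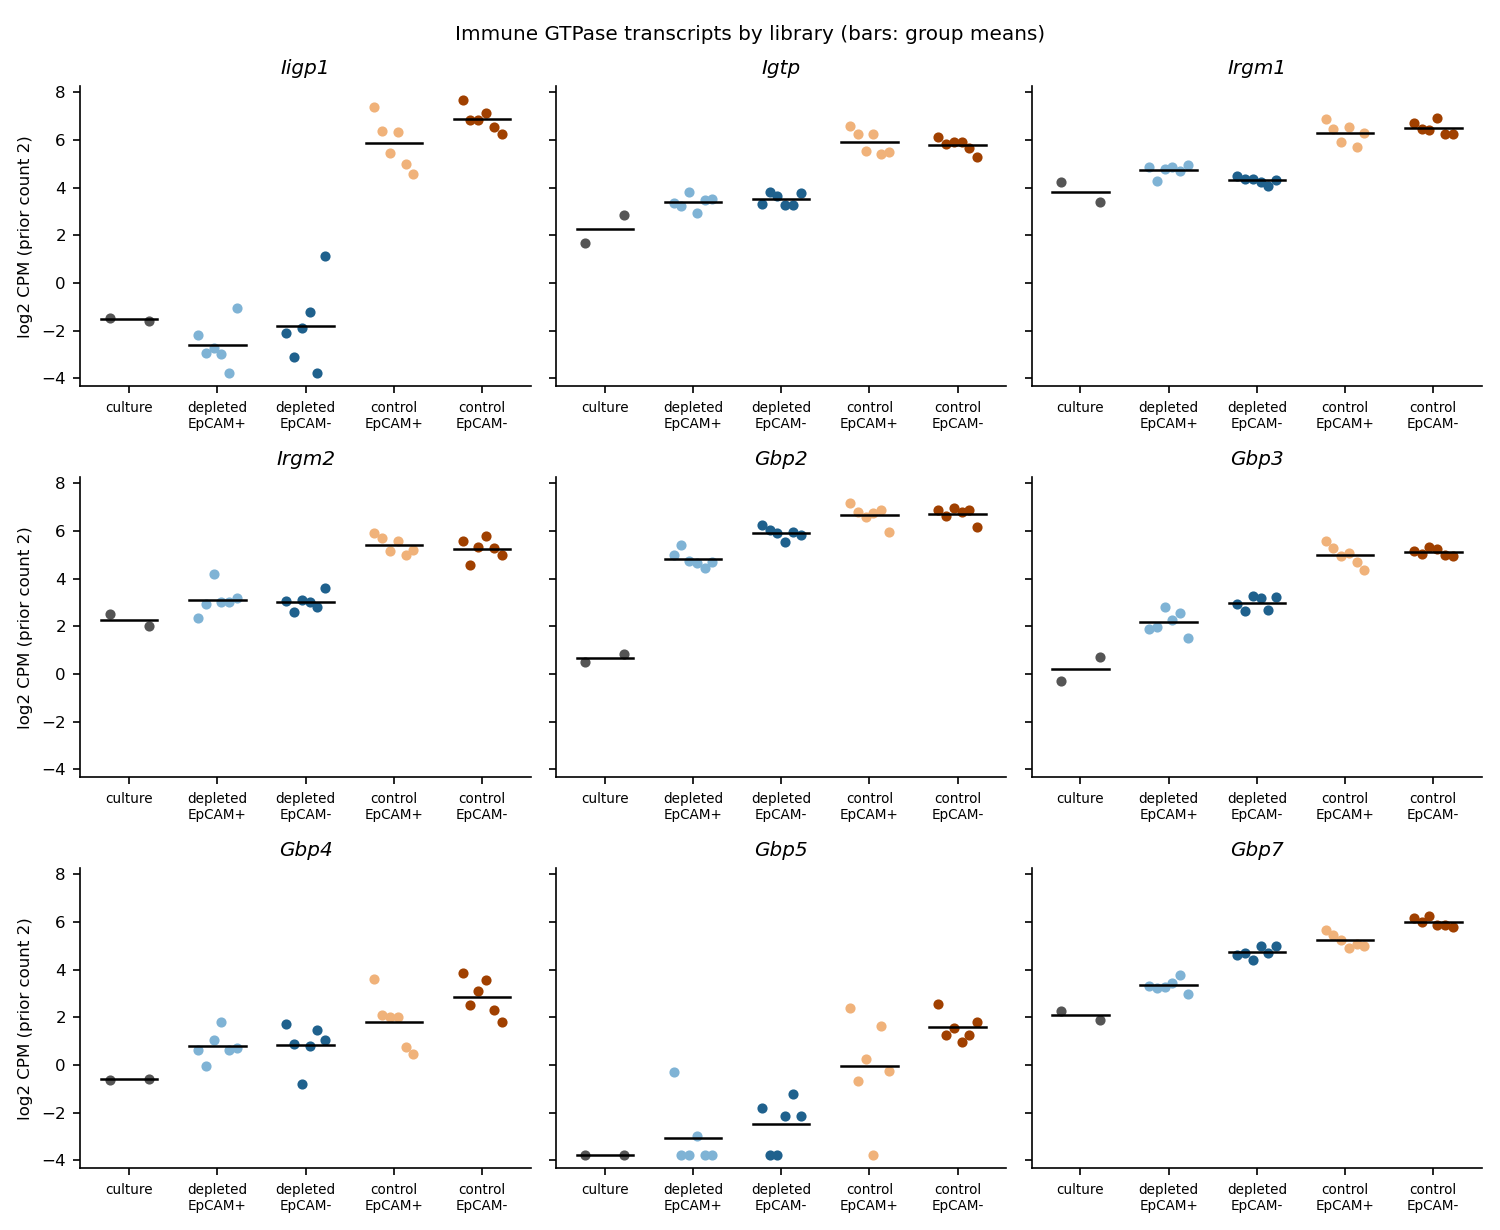
Levels of the 9 GTPase genes in every library, as log2 CPM with a prior count of 2; each panel is a gene, each point a library, and the black bars are group means. Control tumour libraries sit highest in every panel, with overlap into the depleted libraries for Gbp4 and Gbp5 in EpCAM-positive and Gbp2 in EpCAM-negative cells, and the spread of Iigp1 runs from 0 to 207 CPM.

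Iigp1 (ENSMUSG00000054072), the effector Irga6, had the widest range of the 9. The EpCAM-positive control libraries had a lowest, median and highest level of 23.9, 63.0 and 169 CPM, and the EpCAM-negative control libraries of 75.8, 115 and 207 CPM. The depleted libraries had 0, 0.0666 and 0.415 CPM in EpCAM-positive and 0, 0.178 and 2.11 CPM in EpCAM-negative cells. Iigp1 was thus abundant in all 12 control libraries and close to the detection limit in the depleted ones, and the 2 treatments were far from overlapping. The depleted values rest on 15 counts over 6 EpCAM-positive libraries and 57 counts over 6 EpCAM-negative libraries, 42 of them in replicate 6. From the pooled counts, Iigp1 was 624-fold higher in control EpCAM-positive cells (95% interval 378 to 1115) and 277-fold higher in control EpCAM-negative cells (213 to 365). These exact binomial intervals cover counting error only. Single depleted libraries set the size of both ratios, which were 1130-fold (548 to 2812) without depleted EpCAM-positive replicate 6 and 886-fold (537 to 1583) without depleted EpCAM-negative replicate 6. Both differences passed the test (adjusted p = 1.86e-10 and 7.32e-11).

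The 3 IRGM genes rose together but far less than Iigp1, from a level that was measurable in every depleted library. Igtp (ENSMUSG00000078853), which encodes Irgm3, had a lowest, median and highest level of 42.9, 61.6 and 95.2 CPM in control and 7.50, 10.7 and 14.2 CPM in depleted EpCAM-positive cells. In EpCAM-negative cells it had 38.6, 58.5 and 70.4 CPM in control and 9.47, 11.2 and 14.2 CPM in depleted tumours. Control and depleted libraries of Igtp did not overlap, and the log2 fold changes were 2.58 ± 0.22 in EpCAM-positive (adjusted p = 5.11e-10) and 2.28 ± 0.22 in EpCAM-negative cells (adjusted p = 2.49e-09).

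Irgm1 (ENSMUSG00000046879), which also serves in autophagy and in the survival of activated lymphocytes, was the most abundant of the 3 by CPM. Its lowest, median and highest levels were 51.7, 83.3 and 120 CPM in control and 19.5, 28.4 and 30.8 CPM in depleted EpCAM-positive cells. In EpCAM-negative cells they were 76.7, 87.5 and 121 CPM in control and 16.8, 20.2 and 22.5 CPM in depleted tumours. The groups did not overlap in either fraction, and the log2 fold changes were 1.60 ± 0.17 in EpCAM-positive (adjusted p = 3.16e-08) and 2.22 ± 0.17 in EpCAM-negative cells (adjusted p = 9.61e-11). The difference between these 2 changes was 0.62 ± 0.24 and did not pass the test (adjusted p = 0.0736). It did without control EpCAM-positive replicate 1 (0.76, adjusted p = 0.0184) and without depleted EpCAM-positive replicate 2 (0.70, adjusted p = 0.0405). With the library number within each treatment as a block it passed as well (0.64, adjusted p = 0.00925).

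Irgm2 (ENSMUSG00000069874), a regulator found on the Golgi, had a lowest, median and highest level of 32.1, 42.2 and 59.5 CPM in control and 5.00, 8.06 and 18.0 CPM in depleted EpCAM-positive cells. In EpCAM-negative cells it had 23.7, 39.5 and 55.8 CPM in control and 6.02, 8.10 and 12.1 CPM in depleted tumours. The groups stayed apart in both fractions, although depleted EpCAM-positive replicate 3, at 18.0 CPM, stood above the other 5 libraries of its group. The log2 fold changes were 2.24 ± 0.25 (adjusted p = 6.09e-08) and 2.26 ± 0.25 (adjusted p = 3.96e-08). Igtp and Irgm2 share sequence: 11.8% of the 50-base windows of Igtp transcripts and 7.83% of those of Irgm2 also occur in another gene's transcripts, mainly in each other's, so the split of their reads is uncertain to that extent.

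Gbp2, Gbp3 and Gbp7 were the more abundant guanylate-binding protein genes, and all 3 rose in both fractions. Gbp2 (ENSMUSG00000028270) had a lowest, median and highest level of 62.3, 109 and 146 CPM in control and 21.5, 26.4 and 42.3 CPM in depleted EpCAM-positive cells, with no overlap. In EpCAM-negative cells it had 71.4, 115 and 125 CPM in control and 46.9, 61.2 and 76.8 CPM in depleted tumours, and here control replicate 6, at 71.4 CPM, lay below the highest depleted library. The log2 fold change of Gbp2 was 1.88 ± 0.18 in EpCAM-positive (adjusted p = 3.5e-09) and 0.81 ± 0.17 in EpCAM-negative cells (adjusted p = 0.000361), the smallest of the 9 genes in that fraction.

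Gbp3 (ENSMUSG00000028268) had a lowest, median and highest level of 20.7, 32.6 and 47.4 CPM in control and 2.75, 4.33 and 6.86 CPM in depleted EpCAM-positive cells. In EpCAM-negative cells it had 31.2, 34.5 and 40.0 CPM in control and 6.15, 8.27 and 9.67 CPM in depleted tumours. Neither fraction showed overlap, and the log2 fold changes were 2.83 ± 0.22 (adjusted p = 8.33e-11) and 2.13 ± 0.21 (adjusted p = 4.25e-09).

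Gbp7 (ENSMUSG00000040253) had a lowest, median and highest level of 30.4, 36.0 and 50.3 CPM in control and 7.73, 9.77 and 13.5 CPM in depleted EpCAM-positive cells. The EpCAM-negative levels were 55.1, 61.2 and 75.4 CPM in control and 21.4, 25.9 and 31.9 CPM in depleted tumours. The groups did not overlap, and the log2 fold changes were 1.91 ± 0.14 (adjusted p = 5.3e-11) and 1.25 ± 0.14 (adjusted p = 3.14e-08). Of the 50-base windows of Gbp7 transcripts, 12.7% also occur in other genes, Gm43802 and Gbp3 first among them, and 2.03% of those of Gbp2 also occur in Gbp2b.

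Gbp4 and Gbp5 were the scarcest of the 5 guanylate-binding protein genes, and their changes were the least even between libraries. Gbp4 (ENSMUSG00000079363) had a lowest, median and highest level of 1.29, 3.97 and 12.0 CPM in control and 0.891, 1.52 and 3.43 CPM in depleted EpCAM-positive cells. For EpCAM-negative cells the levels were 3.41, 7.04 and 14.4 CPM in control and 0.493, 1.88 and 3.21 CPM in depleted tumours. Of the 50-base windows of Gbp4 transcripts, 7.78% also occur in other genes, Gbp11, Gbp6 and Gm43302 first among them. The fractions differed in overlap: 4 of 6 control EpCAM-positive libraries, but all 6 control EpCAM-negative libraries, were above the highest depleted library. The log2 fold changes were 1.33 ± 0.47 (adjusted p = 0.0271) and 2.03 ± 0.48 (adjusted p = 0.00104). The EpCAM-positive call was lost without control replicate 1, the library at 12.0 CPM (0.74, adjusted p = 0.182), and without depleted replicate 1 (1.28, adjusted p = 0.0509), depleted replicate 2 (1.19, adjusted p = 0.062) or depleted replicate 5 (1.28, adjusted p = 0.0516).

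Gbp5 (ENSMUSG00000105504), which promotes inflammasome assembly, was detected in 11 of 12 control tumour libraries and in 6 of 12 depleted ones. Its lowest, median and highest levels were 0, 0.947 and 5.23 CPM in control and 0, 0 and 0.743 CPM in depleted EpCAM-positive cells. In EpCAM-negative cells they were 1.90, 2.61 and 5.88 CPM in control and 0, 0.152 and 0.357 CPM in depleted tumours, without overlap. Control EpCAM-positive replicate 4 had 0 counts, which puts it among the depleted libraries. From the pooled counts, Gbp5 was 14.9-fold higher in control EpCAM-positive cells (95% counting interval 9.05 to 26.3, 372 against 16 counts) and 21-fold higher in control EpCAM-negative cells (13.3 to 35.1, 609 against 19 counts). The adjusted p-values were 0.00608 and 0.00141. In depleted EpCAM-positive cells 15 of the 16 counts were in replicate 1, without which 1 count was left and the ratio was 200-fold with an interval of 35.6 to 7906. It was 8.77-fold (5.25 to 15.7) without control EpCAM-positive replicate 1. Without depleted EpCAM-negative replicate 5 the EpCAM-negative ratio was 31.9-fold (17.2 to 66.9).

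**Figure D3:**
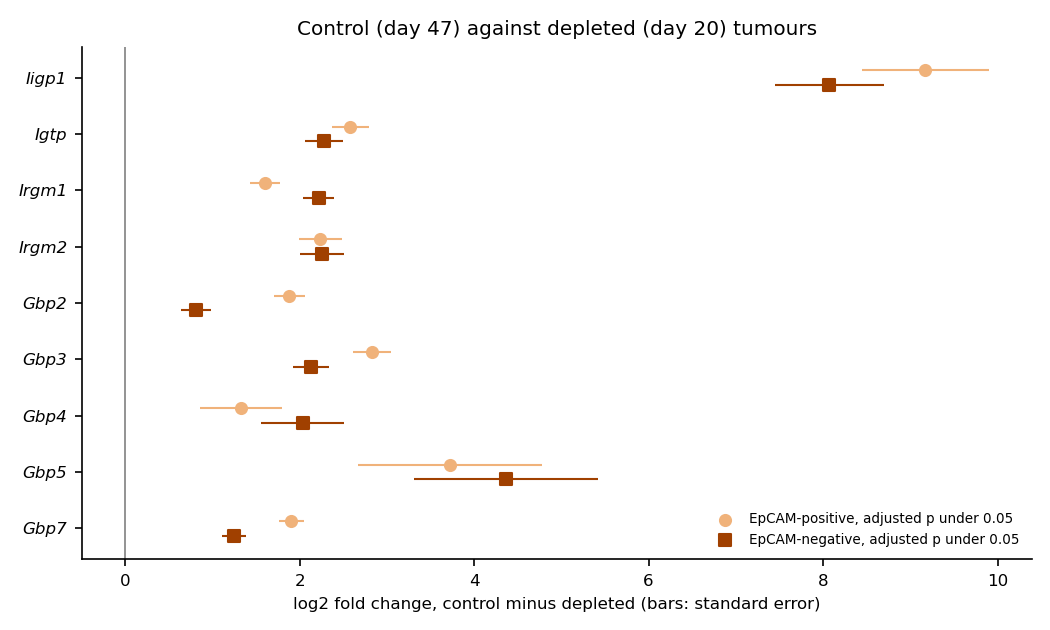
Log2 fold change of control (day 47) against depleted (day 20) tumours for the 9 GTPase genes, in EpCAM-positive (circles) and EpCAM-negative cells (squares), with bars of 1 standard error; all symbols are filled because all 18 adjusted p-values were under 0.05. Iigp1 stands far to the right, and Gbp2 in EpCAM-negative cells is nearest to 0 at 0.81.

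RNA of other cells did not follow 1 direction beside these differences. The summed level of 7 pan-leukocyte markers, such as Ptprc (CD45) and Tyrobp, was lower in control (4.98 to 20.5 CPM in EpCAM-positive, 5.48 to 8.45 in EpCAM-negative cells) than in depleted tumours (28.2 to 59.7 and 31.9 to 78.3), opposite to the GTPases. The 15 macrophage markers summed to 176 to 357 CPM in control and 194 to 283 CPM in depleted EpCAM-positive cells, and to 95.1 to 142 and 178 to 390 CPM in EpCAM-negative cells. The 10 T cell markers summed to at most 3.62 CPM in any library, but in EpCAM-positive cells their sum moved with the GTPases, with a median of 1.84 and at most 3.03 CPM in control libraries, all of which were above the depleted libraries at 0.444 to 1.00 CPM. In EpCAM-negative cells it was 1.58 to 2.95 CPM in depleted and 2.55 to 3.62 CPM in control libraries. Most of it was Trac. In control EpCAM-positive cells only Cd4 of the 10 was at 0 in all 6 libraries, and in control EpCAM-negative cells Cd3d, Cd3g, Cd2, Cd4, Cd8a, Cd8b1 and Cd5 were. The 7 dendritic cell markers did move with the GTPases, from 32.6 to 55.1 CPM in control and from 4.10 to 10.7 CPM in depleted libraries. Most of that sum was Zbtb46, at 30.9 to 49.2 CPM in control and 1.92 to 8.73 CPM in depleted libraries, while Itgax and Clec9a were at 0 in all 6 control EpCAM-negative libraries. In control EpCAM-positive cells only Cd209a was at 0 in every library, and Itgax, Flt3, Xcr1 and Clec9a reached 1.01, 0.456, 0.178 and 0.107 CPM. The 7 fibroblast markers moved with the GTPases as well, from 61.9 to 189 CPM in depleted and from 415 to 2839 CPM in control libraries. Most of that sum was Col1a1 and Pdgfra, while Thy1, Fap and Dpt were each under 0.766 CPM in every library, and Thy1, which encodes the CD90 of the sort, was at 0 in all 6 control EpCAM-negative libraries. The 6 pericyte and smooth muscle markers summed to 16.0 to 120 CPM in depleted and 295 to 1687 CPM in control libraries, mainly Pdgfrb, with Rgs5 at 1.51 CPM or less. Endothelial and neutrophil sums were lower in control than in depleted libraries of the same fraction, and natural killer cell and B cell markers summed to at most 1.00 and 0.237 CPM. The part of depth and of these transcripts in the GTPase differences was not tested.

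The EpCAM fractions differed in only a few of the 9 genes, and in those the EpCAM-negative cells were higher. In control tumours 1 of the 9 was called, Gbp7, against 27.9% of the features tested in either direction (13.4% higher and 14.5% lower), and in depleted tumours 3 of the 9 were called, Gbp2, Gbp3 and Gbp7, against 28.5% (14.3% higher and 14.3% lower). These shares of the members, 1 and 3 of 9, are not far from the shares over all features. The median log2 fold change of the 9 genes was 0.17 in control and 0.16 in depleted tumours, against -0.01 and 0.01 over all features.

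Gbp7 was higher in EpCAM-negative cells under both treatments. From the levels above, its control libraries did not overlap between the fractions (30.4 to 50.3 against 55.1 to 75.4 CPM), nor did its depleted libraries (7.73 to 13.5 against 21.4 to 31.9 CPM). Gbp7 was the only member without overlap in control tumours, and Gbp2 and Gbp7 were those without it in depleted tumours, where 6.31% and 7.1% of the features tested were higher in every EpCAM-negative library. The log2 fold change of Gbp7 was 0.74 ± 0.13 in control (adjusted p = 0.00013) and 1.40 ± 0.14 in depleted tumours (adjusted p = 1.94e-08). For Gbp2 it was 0.01 ± 0.17 in control (adjusted p = 0.974) and 1.09 ± 0.17 in depleted tumours (adjusted p = 2.22e-05). For Gbp3 it was 0.09 ± 0.20 in control (adjusted p = 0.796) and 0.78 ± 0.21 in depleted tumours (adjusted p = 0.0055), with 4 of 6 depleted EpCAM-negative libraries above every EpCAM-positive one.

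The EpCAM contrast itself differed between treatments for 2 of the 9 genes, both with a smaller contrast in control tumours, where 9.33% of the features tested had a lower contrast, 8.68% a higher one, and 18% differed in either direction. The differences were -1.08 ± 0.24 for Gbp2 (adjusted p = 0.00238) and -0.66 ± 0.19 for Gbp7 (adjusted p = 0.0176). For Gbp3 the difference was -0.70 ± 0.29 and did not pass (adjusted p = 0.0964), but it passed without depleted EpCAM-positive replicate 3 (-0.85, adjusted p = 0.0361) and without control EpCAM-positive replicate 6 (-0.81, adjusted p = 0.0422). This contrast uses the same 24 libraries as the control against depleted comparisons, so the same values for Gbp2 and Gbp7 are seen there as a smaller change in EpCAM-negative than in EpCAM-positive cells.

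None of the 4 immunity-related GTPase genes was called between the fractions with all libraries fitted by group, but calls of Iigp1 and Irgm1 changed with the fit. Iigp1 had a log2 fold change of 0.78 ± 0.41 in control tumours (adjusted p = 0.168), which passed the test when control EpCAM-positive replicate 1, the library at 169 CPM, was left out (1.23, adjusted p = 0.0219). Gbp4 behaved in the same way there, with 0.83 ± 0.45 (adjusted p = 0.185) and 1.42 (adjusted p = 0.015) without that library. In depleted tumours Irgm1 had the only negative value beyond its error, -0.45 ± 0.17 (adjusted p = 0.0521), and it passed without depleted EpCAM-positive replicate 2 (-0.52, adjusted p = 0.0243) or depleted EpCAM-negative replicate 1 (-0.50, adjusted p = 0.0407), and with all libraries under RLE scaling (-0.46, adjusted p = 0.0451), with only the groups compared (-0.45, adjusted p = 0.00603) and in DESeq2 (-0.46, adjusted p = 0.0312). Igtp and Irgm2 lay between -0.19 and 0.12 under both treatments with standard errors of 0.20 to 0.25. With the library number within each treatment as a block, Iigp1 was called in control (0.99, adjusted p = 0.000484) and depleted tumours (1.80, adjusted p = 0.0333). Under this block Gbp4 was called in control (1.02, adjusted p = 0.0341) and Irgm1 in depleted tumours (-0.45, adjusted p = 0.00663). The labels do not say whether a number joins the fractions of 1 tumour.

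**Figure D4:**
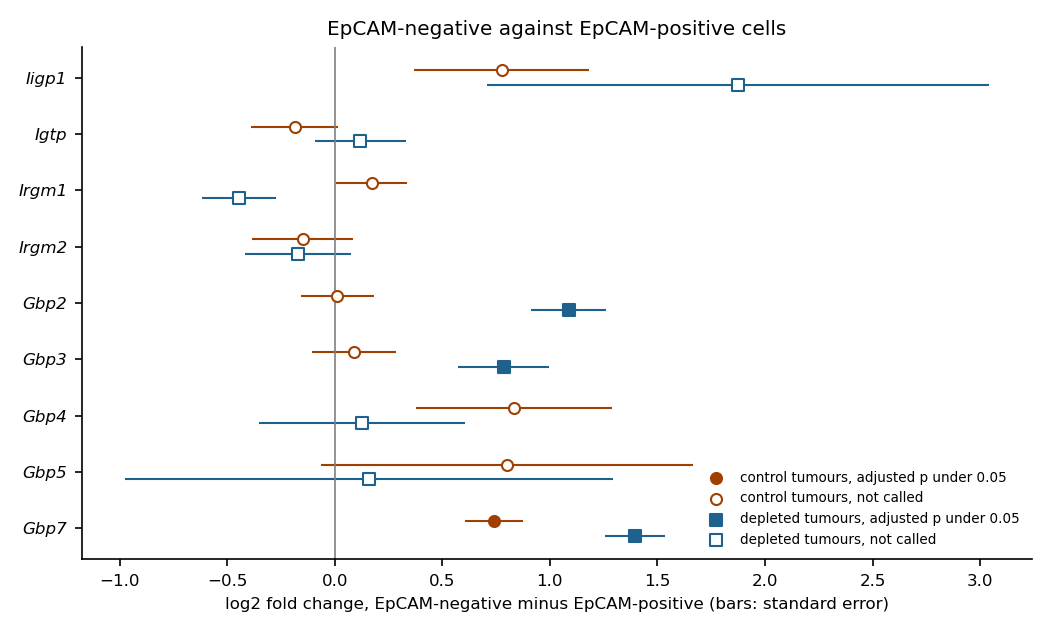
Log2 fold change of EpCAM-negative against EpCAM-positive cells for the 9 GTPase genes in control (circles) and depleted tumours (squares), with bars of 1 standard error; filled symbols have an adjusted p under 0.05. Gbp7 is filled under both treatments and Gbp2 and Gbp3 in depleted tumours, and the bars of Iigp1 and Gbp5 in depleted tumours are the widest.

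In culture the 9 genes were low but, apart from Gbp5, not absent. The 2 culture libraries had 14.6 CPM of Irgm1 on average (10.5 and 18.8), 5.13 of Igtp (3.14 and 7.11), 4.76 of Irgm2 (3.94 and 5.58) and 4.19 of Gbp7 (3.61 and 4.78). Gbp2 was at 1.35 and 1.71 CPM, Gbp3 at 0.737 and 1.56 CPM, Gbp4 at 0.577 and 0.589 CPM, and Iigp1 at 0.256 and 0.289 CPM. Gbp5 had no count in either culture. The 4 comparisons with culture share these 2 libraries.

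Against culture, 9 of 9 genes were higher in control EpCAM-positive cells, where 27.7% of the features tested were higher, and 9 of 9 in control EpCAM-negative cells, where 26.5% were. The largest fitted differences outside Iigp1 and Gbp5 were those of Gbp2, with log2 fold changes of 6.11 ± 0.37 (adjusted p = 6.78e-13) and 6.12 ± 0.37 (adjusted p = 4.5e-13), and Gbp3, with 4.82 ± 0.39 (adjusted p = 1.46e-10) and 4.90 ± 0.39 (adjusted p = 9e-11). Without culture replicate 2, Gbp3 stood at 5.45 and 5.53 and Igtp, at 3.63 ± 0.37 and 3.44 ± 0.36 with all libraries (adjusted p = 6.69e-09 and 1.18e-08), at 4.32 and 4.13. Every control library was above both cultures for 8 of the 9 genes in EpCAM-positive and for 9 of the 9 in EpCAM-negative cells, as it was for 29.1% and 28.4% of the features tested. Iigp1 was 278-fold (95% counting interval 178 to 462) and 460-fold (294 to 764) higher than in culture by pooled counts, which for the cultures are 19 counts. Against the floor of 3 counts over both cultures, Gbp5 was at least 44.9-fold and 73.5-fold higher. The call of Gbp5 in EpCAM-positive cells (adjusted p = 0.0059) was lost without culture replicate 1 (adjusted p = 0.0537) or culture replicate 2 (adjusted p = 0.0618).

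In depleted EpCAM-positive cells 6 of 9 genes were higher than in culture, against 20.9% of the features tested, and in depleted EpCAM-negative cells 4 of 9, against 21.7%. Every depleted library was above both cultures for 6 and 5 of the 9 genes, as it was for 23.1% and 22.7% of the features tested. Gbp2, Gbp3, Gbp7 and Igtp were called in both fractions. The log2 fold changes of Gbp2 were 4.23 ± 0.34 in EpCAM-positive cells and 5.31 ± 0.36 in EpCAM-negative ones (adjusted p = 3.11e-10 and 1.1e-11), those of Gbp3 1.99 ± 0.35 and 2.77 ± 0.36 (adjusted p = 4.91e-05 and 5.75e-07; 2.61 and 3.39 without culture replicate 2), and those of Gbp7 1.28 ± 0.22 and 2.68 ± 0.23 (adjusted p = 3.13e-05 and 9.28e-10). The 3 are also the members called between the fractions of depleted tumours, a comparison that uses the same depleted libraries.

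The IRGM genes differed less from culture in depleted cells, and each of their calls was lost without at least 1 library. Igtp had 1.04 ± 0.32 in EpCAM-positive cells and 1.16 ± 0.32 in EpCAM-negative ones (adjusted p = 0.0107 and 0.00464), both lost without culture replicate 1 (0.58, adjusted p = 0.301, and 0.69, adjusted p = 0.194), while without culture replicate 2 they stood at 1.72 and 1.84. Irgm1 was called in EpCAM-positive cells (0.89 ± 0.25, adjusted p = 0.00597) but not without culture replicate 2 (0.49, adjusted p = 0.269), and in EpCAM-negative cells it was at 0.45 ± 0.25 (adjusted p = 0.153), and passed without culture replicate 1 (0.92, adjusted p = 0.0337). Irgm2 was called in EpCAM-positive cells (0.97 ± 0.37, adjusted p = 0.0367) but not without culture replicate 1 (1.24, adjusted p = 0.0778), culture replicate 2 (0.71, adjusted p = 0.322) or depleted replicate 3 (0.63, adjusted p = 0.106). With every library kept, the call was also lost without the filter on low counts (0.93, adjusted p = 0.0813) and with only the groups compared (0.95, adjusted p = 0.0744). In EpCAM-negative cells Irgm2 had 0.80 ± 0.36 (adjusted p = 0.079), and passed with only the groups compared (0.79, adjusted p = 0.0479).

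Iigp1, Gbp4 and Gbp5 were not called between depleted cells and culture by edgeR's fit of all groups. Iigp1 had a pooled ratio of 0.446 to culture in EpCAM-positive (95% counting interval 0.211 to 0.926, 15 against 19 counts) and of 1.66 in EpCAM-negative cells (0.974 to 2.96, 57 against 19 counts). The adjusted p-values of the fit were 0.598 and 0.667. The ratios were 0.246 (0.0875 to 0.612) without depleted EpCAM-positive replicate 6 and 0.519 (0.245 to 1.08) without depleted EpCAM-negative replicate 6, so that the direction in EpCAM-negative cells turned with that library. Gbp4 had 1.62 ± 0.75 (adjusted p = 0.0921) and 1.75 ± 0.76 (adjusted p = 0.0661), the second of which passed without depleted EpCAM-negative replicate 3 (1.90, adjusted p = 0.0386). DESeq2 called Gbp4 in both fractions (adjusted p = 0.0428 and 0.028), and edgeR did in EpCAM-positive cells with only the groups compared (adjusted p = 0.0392). Gbp5 was at least 3.51-fold above the culture floor in depleted EpCAM-negative cells (adjusted p = 0.128), where DESeq2 called it (adjusted p = 0.0476). This bound was 2.30-fold without depleted replicate 5, 1.95-fold without culture replicate 1 and 1.56-fold without culture replicate 2. In depleted EpCAM-positive cells (adjusted p = 0.151) no bound is given, because 15 of the 16 counts of Gbp5 were in replicate 1.

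Ordered by group mean, 6 of the 9 genes (Gbp2, Gbp3, Gbp4, Gbp5, Gbp7 and, apart from the place of culture, Iigp1) rose from depleted EpCAM-positive through depleted EpCAM-negative and control EpCAM-positive to control EpCAM-negative cells. Culture was lowest for 8 of the 9, and Iigp1 was lowest in depleted EpCAM-positive cells. Igtp and Irgm2 were highest in control EpCAM-positive cells, but neither gene differed between the control fractions by more than the spread (-0.19 ± 0.20 and -0.15 ± 0.23). Per kilobase of exon, Gbp2 had the highest level of the 9 in every tumour group, from 11.5 ± 2.91 CPM per kilobase (SD, n = 6) in depleted EpCAM-positive to 42.8 ± 7.91 in control EpCAM-negative cells. Igtp came next in every tumour group, at 5.25 ± 1.10, 5.71 ± 1.04, 31.5 ± 10.8 and 27.7 ± 5.33 CPM per kilobase in depleted EpCAM-positive, depleted EpCAM-negative, control EpCAM-positive and control EpCAM-negative cells. Iigp1 went from the next-to-lowest place in both depleted groups (0.0215 ± 0.0258 and 0.0820 ± 0.139 CPM per kilobase) to the third place in control EpCAM-negative cells (21.3 ± 7.92). Gbp5 was lowest per kilobase in every group, at 0.471 ± 0.219 in control EpCAM-negative cells.

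Spread between libraries of 1 group differed between genes. In control EpCAM-positive cells the highest library exceeded the lowest 1.66-fold for Gbp7, 1.85-fold for Irgm2, 7.08-fold for Iigp1 and 9.30-fold for Gbp4. Replicate 1 of that group was the highest library for all 9 genes, with 169 CPM of Iigp1, 12.0 of Gbp4 and 5.23 of Gbp5. Deviations from the group means over the 24 tumour libraries were described by Pearson's r between genes. They were largest for Irgm2 and Gbp3 (0.66) and for Igtp and Irgm1 (0.66), and were at most 0.38 for any pair with Gbp5. These values share libraries and depth, and in Gbp5 and in depleted Iigp1 they rest on few counts.

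Of 17 other genes of both families, 13 were tested, and 7 of these (Gbp8, Gbp10, Tgtp1, Tgtp2, F830016B08Rik, 9930111J21Rik1 and 9930111J21Rik2) passed the filter on low counts only through the control tumours, so that they could only come out higher there. Of the other 6, which passed without the control tumours, 4 were higher in control EpCAM-positive cells and 3 in control EpCAM-negative cells. None of the 6 was lower. Among all features tested, 22.4% and 23.2% were higher and 17.6% and 21.8% lower in these fractions. Counted over all 13, 11 and 10 were higher. Ifi47, an effector GTPase also called Irgd, had a mean of 36.2 CPM in control and 0.517 CPM in depleted EpCAM-positive cells (6.09 ± 0.48, adjusted p = 1.48e-10). Its EpCAM-negative levels were 52.8 and 0.710 CPM (6.22 ± 0.47, adjusted p = 4.15e-11). Tgtp1, which encodes an Irgb6 protein, had no count in any of the 12 depleted libraries and was at least 131-fold higher in control EpCAM-positive and 109-fold higher in control EpCAM-negative cells. Of its 50-base windows 81.2% occur in other genes, mainly Tgtp2, so these 2 are uncertain as separate genes. Gm4951 rose by 4.88 ± 0.77 and 6.70 ± 0.85 (adjusted p = 1.15e-05 and 3.89e-07), and 9930111J21Rik2 by 7.57 ± 0.95 and 7.97 ± 0.95 (adjusted p = 4.46e-07 and 1.36e-07). For 9930111J21Rik2, 59.75% of the 50-base windows also occur in other genes, 9930111J21Rik1 first among them, so its reads are uncertain as well. Gbp9 and Gbp11 were not called in either fraction, with -0.24 ± 0.31 and 0.02 ± 0.54 in EpCAM-positive and 0.71 ± 0.31 and 0.39 ± 0.54 in EpCAM-negative cells. Only 6 genes of the list were called higher in EpCAM-positive cells when the fit held those 2 groups alone.

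Upstream of the GTPases, the ligand was not seen in the sorted cells. Ifng had no count in any of the 26 libraries, in which 3 counts would have been between 0.0768 and 0.167 CPM. The receptor chain Ifngr2 had medians of 123 CPM in control and 77.5 CPM in depleted EpCAM-positive cells, and of 141 and 81.6 CPM in EpCAM-negative cells. Control and depleted libraries of Ifngr2 did not overlap, and the log2 fold changes were 0.72 ± 0.09 (adjusted p = 7.3e-07) and 0.82 ± 0.09 (adjusted p = 5.5e-08). The other chain, Ifngr1, rose in EpCAM-positive cells (0.41 ± 0.08, adjusted p = 0.000177) and stood at -0.04 ± 0.08 in EpCAM-negative cells (adjusted p = 0.702), and these changes differed by -0.45 ± 0.11 (adjusted p = 0.00566). Jak1, the receptor kinase, fell in both fractions, with log2 fold changes of -0.29 ± 0.06 and -0.33 ± 0.06 (adjusted p = 0.000614 and 0.00012).

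The transcription factors of this pathway were mostly higher in control tumours. Irf1 had a lowest, median and highest level of 132, 196 and 260 CPM in control and 58.5, 67.9 and 86.8 CPM in depleted EpCAM-positive cells. Among EpCAM-negative cells it had 157, 209 and 338 CPM in control and 72.6, 85.6 and 101 CPM in depleted tumours. Control and depleted libraries of Irf1 did not overlap, and its log2 fold changes were 1.50 ± 0.16 and 1.35 ± 0.16 (adjusted p = 3.1e-08 and 1.11e-07). Stat2 rose by 1.24 ± 0.20 and 1.62 ± 0.20 (adjusted p = 1.23e-05 and 2.22e-07). Nlrc5, the activator of MHC class I genes, had medians of 8.04 and 0.0388 CPM in EpCAM-positive and 15.4 and 0.378 CPM in EpCAM-negative cells (6.11 ± 0.90 and 4.51 ± 0.75, adjusted p = 4.95e-06 and 1.85e-05). Ciita, the activator of MHC class II genes, was not called (1.33 ± 0.77 and 1.46 ± 0.77, adjusted p = 0.177 and 0.129). The feedback inhibitors Socs1 (0.92 ± 0.18 and 1.36 ± 0.18, adjusted p = 0.000231 and 7.97e-07) and Socs3 (1.90 ± 0.16 and 0.90 ± 0.16, adjusted p = 7.02e-10 and 4.03e-05) rose too. In all, 11 of the 17 tested signalling genes were higher and 3 lower in control EpCAM-positive cells, and 10 were higher and 2 lower in the other fraction, with medians of 0.72 and 0.90. Over all features tested, 22.4% and 23.2% were higher and 17.6% and 21.8% lower in these fractions. Irf8, a factor of myeloid cells, fell, with log2 fold changes of -1.53 ± 0.50 and -4.04 ± 0.56 (adjusted p = 0.016 and 1.26e-06).

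Most of the other interferon targets tested were higher in control tumours, and some were lower or not called. Of 23 tested interferon gamma targets outside both families, 17 were higher and 2 lower in control EpCAM-positive cells, and 15 higher and 4 lower in the EpCAM-negative fraction, with medians of 0.96 and 0.92. Cxcl9 passed the filter only through the control tumours, and without it 16 and 14 were higher. Psmb8, a subunit of the immunoproteasome, rose from a mean of 12.9 to 90.8 CPM in EpCAM-positive (2.81 ± 0.20, adjusted p = 3.62e-11) and from 13.1 to 114 CPM in EpCAM-negative cells (3.12 ± 0.21, adjusted p = 4.09e-12). Vcam1, an adhesion molecule for leukocytes, rose by 4.01 ± 0.34 and 4.61 ± 0.34 (adjusted p = 5.66e-10 and 2.69e-11), and Lgals3bp by 1.75 ± 0.11 and 2.79 ± 0.12 (adjusted p = 4.81e-12 and 1.87e-15). Of 29 genes that type I interferon induces, 20 were higher and 1 lower in control EpCAM-positive cells, and 24 higher and none lower in EpCAM-negative cells, with medians of 1.76 and 2.38. Rtp4 rose by 4.80 ± 0.31 and 6.06 ± 0.33 (adjusted p = 3.53e-12 and 1.57e-13), and Ifit2 by 1.88 ± 0.18 and 2.38 ± 0.18 (adjusted p = 6.48e-09 and 5.11e-11). Many of these genes answer to both kinds of interferon. For comparison with both lists, 22.4% and 23.2% of all features tested were higher and 17.6% and 21.8% lower in these fractions. The 4 lower interferon gamma targets of 23 in EpCAM-negative cells are not far from that share.

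The gene groups that work with the GTPases showed no common direction. Of 18 autophagy conjugation and adaptor genes, 5 were higher and 1 lower in control EpCAM-positive cells and 4 higher and 1 lower in EpCAM-negative cells, with medians of 0.15 and 0.12. Over all features tested, 22.4% and 23.2% were higher and 17.6% and 21.8% lower, and the higher counts of this list are not far from those shares. Atg3, the enzyme that attaches the LC3 and GABARAP proteins to membranes, rose by 1.04 ± 0.09 and 1.00 ± 0.09 (adjusted p = 3.78e-10 and 4.25e-10), and Map1lc3a, which encodes an LC3 protein, by 1.02 ± 0.11 and 0.74 ± 0.11 (adjusted p = 5.82e-08 and 4.97e-06). Without control EpCAM-negative replicate 3, 7 autophagy genes were higher in that fraction. The lower count there was 4 without depleted replicate 4, 2 without depleted replicate 5, and 3 without control replicate 4.

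Of 10 tested inflammasome genes, 2 were higher and 5 lower in control EpCAM-positive cells, and 2 higher and 6 lower in EpCAM-negative cells. Over all features tested, 22.4% and 23.2% were higher and 17.6% and 21.8% lower. Aim2, Nlrp1b and Nlrc4 passed the filter only through the depleted tumours, so that they could only come out lower in control. Of the other 7 genes 2 were lower in EpCAM-positive cells and 3 in EpCAM-negative ones. The 2 that rose were caspases. Casp1 had means of 143 and 8.84 CPM in control and depleted EpCAM-positive cells (4.01 ± 0.23, adjusted p = 4.65e-13) and of 215 and 19.0 CPM in EpCAM-negative cells (3.50 ± 0.22, adjusted p = 1.84e-12). Casp4, which in the mouse encodes caspase-11, had 6.20 and 0.0882 CPM (6.06 ± 0.80, adjusted p = 9.55e-07) and 5.89 and 0.363 CPM (3.99 ± 0.68, adjusted p = 2.6e-05). Among the other 7, the cytokine Il1b fell in both fractions (-1.97 ± 0.66 and -5.31 ± 0.79, adjusted p = 0.0184 and 4.37e-06). Il1b is expressed by myeloid cells. The pan-leukocyte sums above were lower in control tumours of both fractions. The sums of the 15 macrophage markers were lower in control EpCAM-negative cells only. In EpCAM-positive cells their medians were 311 CPM in control and 264 CPM in depleted libraries. The part of other cells' RNA in the fall of Il1b was not tested.

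**Figure D5:**
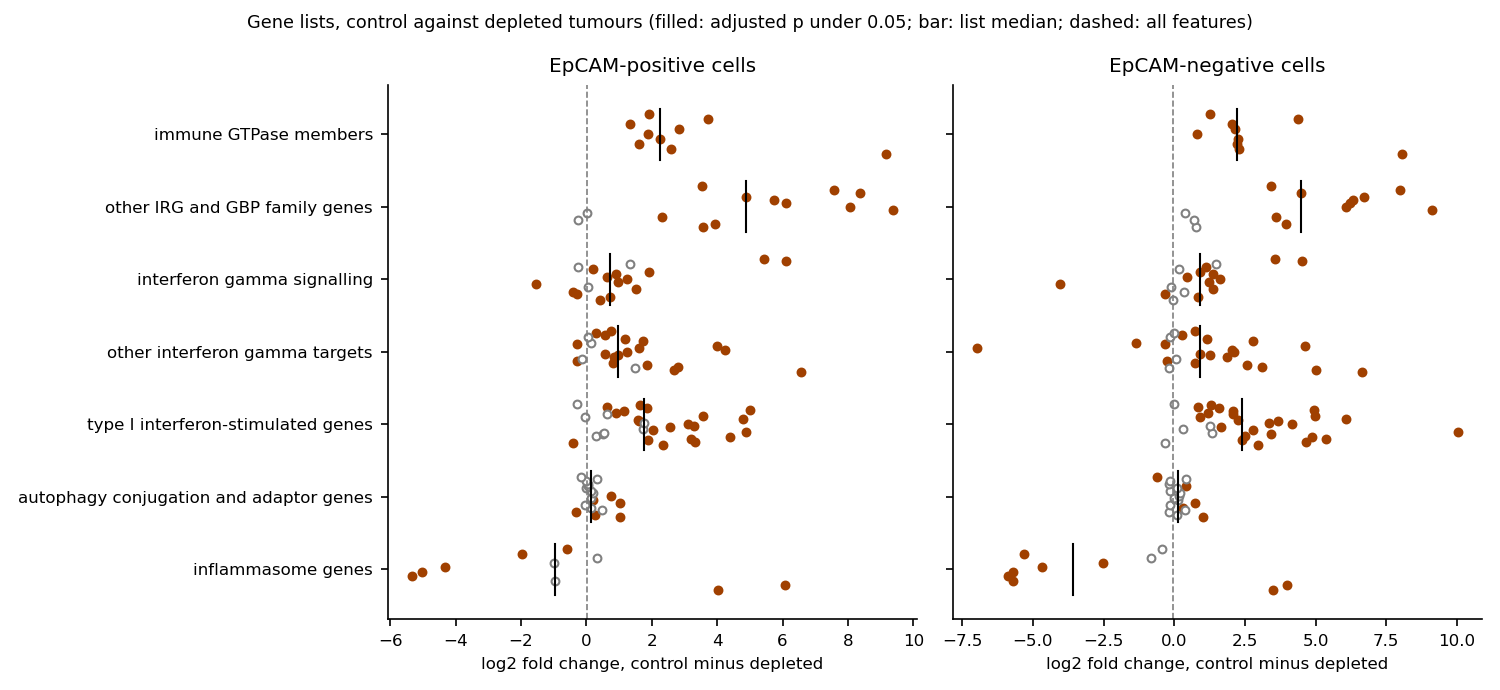
Log2 fold change of control against depleted tumours for the tested genes of each list, in EpCAM-positive (left) and EpCAM-negative cells (right); filled points have an adjusted p under 0.05, bars are list medians and the dashed line is the median of all features. All 9 GTPase members lie to the right of the dashed line, autophagy genes lie around it, and the inflammasome list has 2 genes far to the right and most of the others to the left. Of the inflammasome genes, Aim2, Nlrp1b and Nlrc4 passed the filter only through the depleted tumours. Gbp8, Gbp10, Tgtp1, Tgtp2, F830016B08Rik, 9930111J21Rik1 and 9930111J21Rik2 of the other family genes, and Cxcl9, passed only through the control tumours. The median of the other family genes is 4.88 (left) and 4.48 (right) as drawn. It is 3.55 and 2.09 over the 6 that passed without the control tumours.

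The genes whose levels were most like those of the members over the 26 libraries were ranked by Pearson's r of log2 CPM with the mean of the members' standardised values. Casp1 came first at 0.98, followed by Spata13, Inhbb, Plppr3, Il33, Klf13, Cx3cl1, Sp100, Fkbp14 and Fam20c, all at 0.97. These values include the differences between the groups. When the group means were taken out, over the 24 tumour libraries, the order was Tap2 (0.87), H2-Q5 (0.83), Tgtp2 (0.82), Cd74 (0.81), H2-Ab1 (0.80), Tgtp1 (0.80), Gm6569 (0.80), Clca2 (0.76), Plppr5 (0.76) and Gbp9 (0.74). The peptide transporter Tap2, the MHC genes H2-Q5 and H2-Ab1, and the invariant chain Cd74 serve antigen presentation. These correlations are descriptions over libraries that share depth and group.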

How the data were processed

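RNA from 24 sorted tumour fractions and 2 cultures was sequenced in reads of 50 bases. The authors deposited a table of raw counts per Ensembl gene; the submitters' processing notes name STAR, DESeq2 1.22.2 and the mouse build mm9, and for the counting program, the annotation and the use of strand, the sources used here give nothing. A second deposited table, of transformed values, was not used.

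Of 47730 features, 16637 passed edgeR's filter (minimum count 10, a cutoff of 0.369 CPM) and were fitted over all 5 groups with TMM scaling and robust quasi-likelihood tests (R 4.3.3, edgeR 4.0.16, limma 3.58.1). All 9 members passed, also when the control tumours were left out of the filter. A feature was called at a Benjamini-Hochberg adjusted p under 0.05. CPM use TMM-scaled library sizes. Levels per kilobase and shared 50-base windows use GENCODE M21 exons, and pooled ratios have exact binomial 95% intervals. The code was tested on simulated data. The alternatives were RLE scaling, no filter, only the groups compared, DESeq2 1.42.0, each library left out, and the library number as a block.

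The members and gene lists were chosen with earlier results of these data known. The text names all members, up to 4 genes with the smallest p per list and comparison, 7 genes of the pathway (Ifng, Ifngr1, Ifngr2, Irf1, Socs1, Ciita and Nlrc5), and the 10 genes most like the members by each measure. One gene of the signalling list is not reported here.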

Additional observations from a re-analysis of the deposited data

Results flagged for a closer look

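In each group of 6 libraries, the highest or lowest library was compared with its nearest neighbour relative to the range of the group, for 16 genes in 60 groups. By this measure 8 libraries stood apart. For normally distributed values about 1 in 20 groups would be flagged. CPM are not so distributed where counts are near 0, and the rate for these groups was not estimated. Among the members, Iigp1 was at 0.415 CPM in depleted EpCAM-positive replicate 6 (next highest 0.149) and at 2.11 CPM in depleted EpCAM-negative replicate 6 (next 0.358). Irgm2 was at 18.0 CPM in depleted EpCAM-positive replicate 3 (next 8.93), Gbp4 at 12.0 CPM in control EpCAM-positive replicate 1 (next 4.24), and Gbp5 at 0.743 CPM in depleted EpCAM-positive replicate 1 (next 0.0536). Among the pathway genes, Irf1 was at 338 CPM in control EpCAM-negative replicate 5 (next 224). Ciita was at 5.26 CPM in control EpCAM-negative replicate 1 (next 2.24), and Nlrc5 at 0.571 CPM in depleted EpCAM-positive replicate 6 (next 0.198).

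The EpCAM contrast differed between control and depleted tumours, by a test of the difference itself, for Gbp2 (-1.08 on the log2 scale), Gbp7 (-0.66) and Ifngr1 (-0.45).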

How the results depend on the processing

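Over 1299 recomputed member results, 1232 kept their direction and side of the threshold, 15 lost the call, 23 gained one and 29 changed sign. In EpCAM-negative cells 9 of 9 members were higher in control under every alternative run, and in EpCAM-positive cells 8 to 9. When 1 library was left out, members called higher numbered 4 to 6 for depleted EpCAM-positive cells against culture, 1 to 3 in control EpCAM-negative against EpCAM-positive cells, and 0 to 1 for the difference of the EpCAM contrasts. In depleted EpCAM-negative against EpCAM-positive cells 0 to 1 members were lower, and 1 was (Irgm1) with RLE scaling, with only the groups compared and with DESeq2. Signs changed only in values that were not called. Gbp2 between control fractions was -0.0029 with RLE scaling, -0.0163 with only the groups compared and -0.0028 with DESeq2. With 1 library left out, it ran from -0.12 to 0.12, and Gbp3 from -0.0331 to 0.221. Between depleted fractions Irgm2 ran from -0.31 to 0.12, Gbp4 from -0.078 to 0.408 and Gbp5 from -0.39 to 3.41. The difference of the contrasts ran from -1.92 to 0.56 for Iigp1, -0.29 to 0.16 for Irgm2 and -2.61 to 1.35 for Gbp5. Iigp1 in depleted EpCAM-negative cells against culture ran from -0.92 to 1.00. Apart from the libraries left out, the cause was not tested. Library numbers gave a weak pairing that the labels do not state. Same-numbered fractions had r of 0.0497 to 0.172 in control and 0.0175 to 0.0469 in depleted tumours. The median r of an EpCAM-positive library with the EpCAM-negative ones was -0.0311 to 0.0287 in control and -0.0107 to 0.0236 in depleted tumours. For every number the same-number r was above this median, and 4 and 3 of 6 numbers correlated best with their own. With the tumour number as a replicate block, 3 members were higher between control fractions (in addition Iigp1, 0.99, adjusted p = 0.000484, and Gbp4, 1.02, adjusted p = 0.0341), 4 were higher (in addition Iigp1, 1.80, adjusted p = 0.0333) and 1 lower (Irgm1, -0.45, adjusted p = 0.00663) between depleted fractions, 1 was higher in the difference of the contrasts (Irgm1), and Irgm2 stood at -0.0738 there. A block of the library number across treatments joins tumours of different mice, with same-number r of -0.0645 to -0.0136 in EpCAM-positive cells. Under it Gbp4 lost its call in EpCAM-positive cells (1.01, adjusted p = 0.106). Without culture replicate 1, all features higher than culture fell from 3478 to 2162 in depleted EpCAM-positive and from 3615 to 2316 in depleted EpCAM-negative cells. Depth limits Iigp1 and Gbp5 in depleted tumours and culture, where a library held few counts or none.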
